A study of Hynobius leechii and Hynobius unisacculus and Hynobius quelpaertensis with 23 samples.

Results

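Of 451 genes measured well enough in the livers of 2 salamander species, 33 stood in both livers of Hynobius unisacculus (UN) outside the whole range of 9 livers of Hynobius leechii, 25 of them above it and 8 below it. The genes were chosen by a fixed rule. A gene symbol had to be present in the count tables of UN and of the H. leechii lineages HC1, HC3 and LE, with a mean of at least 10 CPM, counts per 1000000 counts of the library, in the livers of each table. Of 13514 symbols found in any table, 3733 were shared by these 4 tables and 451 met the minimum. A gene was kept when both UN livers were higher, or both were lower, than every H. leechii liver. The share kept was 5.54% above and 1.77% below, 7.32% together. Since these liver values chose the genes, they are a description, and no p-value is given for them.

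The study sequenced polyadenylated RNA from 23 tissue libraries of 15 wild-caught adult Hynobius salamanders from Korea, none of which received a treatment. The UN group was 2 livers of different animals, and UN liver 1 came from the animal that also gave the UN intestine and the UN skin. H. leechii was represented by 3 livers each of the lineages that the labels name HYNLE+HC1, HYNLE+HC3 and HYNLE, called HC1, HC3 and LE here, with intestines of 1 HC1 and 1 LE animal and skins of 1 HC1 and 1 HC3 animal. In H. leechii these intestines and skins came from the animals of HC1 liver 2, HC3 liver 2 and LE liver 3. H. quelpaertensis (QU) and H. yangi (YA) gave 2 livers each, which the rule did not use. Sex, age in years and season of capture were not used here, and as the animals were wild they may differ between the groups.

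Each lineage had its own reference sequences and its own count table, so a symbol can stand for a longer or shorter stretch of a gene, or for another copy, in different tables. Species and reference therefore cannot be told apart in any liver value below. Sequences and lengths of the references were not used here. The carbamoyl-phosphate synthase CPS1, the entry enzyme of the urea cycle, differed widely between lineages and tables: it stood at 17224 and 7403 CPM in the UN livers and at 9139 to 14505 CPM in the HC3 livers, against 0 to 2.77 CPM in the HC1 and LE livers. Among the 451 genes, the mean liver level differed at least 2-fold between the H. leechii lineages for 216 genes (47.9%), at least 5-fold for 68 (15.1%) and at least 10-fold for 32 (7.10%). The UN mean lay at least 2-fold above the highest of the 3 lineage means for 25 genes, at least 5-fold above it for 15 and at least 10-fold above it for 10. It lay at least 2-fold below the lowest lineage mean for 9 genes and at least 5-fold below it for 0.

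Total counts were 18207101 and 16013480 in the UN livers and 8672566 to 18699540 in the H. leechii livers, 1967812 to 2995215 in the 3 intestines and 2552636 to 4628175 in the 3 skins. The 451 genes held 8.23% to 12.3% of the counts of a liver. The livers of the animals that gave more than 1 tissue stood apart in how low counts were spread: 43.0% to 48.1% of their counts from 1 to 19 were odd numbers, against 11.3% to 17.2% in the livers of animals that gave liver alone, and 29.8% to 40.8% of their rows were at 0, against 6.36% to 15.9%. UN liver 1 came from an animal with more than 1 tissue, as did 3 H. leechii livers, and UN liver 2 from an animal with liver alone, as did 6, so both kinds were in both species. How reads were counted is not given in the sources used here, and a count may stand for a read in some libraries and a read pair in others. Totals, levels and the floor for counts of 0 may then differ in meaning between the kinds, which was not tested. Genes well above the minimum could also be at 0 in livers of animals with more than 1 tissue. ACO1 was at 0 CPM in HC1 liver 2 and LE liver 3. In this kind it was also at 226 CPM in HC3 liver 2 and 902 CPM in UN liver 1. LE livers 1 and 2, of the other kind, had 695 and 618 CPM. TUBA1C and SF3B2 were at 0 CPM in UN liver 1, against 436 and 117 CPM in UN liver 2. Liver markers gave a mixed picture. The plasma protein AMBP stood at 5521 and 10561 CPM in the UN livers and at 3649 to 9421 CPM in the H. leechii livers, against 0.668 CPM in the UN intestine and 1.45 CPM in the UN skin. The tryptophan-degrading enzyme TDO2 had 2931 and 944 CPM in the UN livers and 871 to 3004 CPM in the H. leechii livers. The heme carrier HPX, however, was at 0 and 0.375 CPM in the UN livers, against 9.15 to 25727 CPM in H. leechii, and in HC1 it was higher in the intestine, at 2178 CPM, than in the livers. The lipoprotein APOB was at 0 and 1.62 CPM in the UN livers and at 0 to 0.832 CPM in the HC1 and LE livers, against 10835 to 17811 CPM in the HC3 livers. Summed over the liver markers of each table, both UN livers were under every H. leechii liver, at 38483 and 33516 CPM against 48962 to 210545 CPM. The sums are over unlike sets, 9 markers in UN and 11 or 12 in H. leechii. The UN table has no row for ALB, FGA, FGB or FGG, and FGB alone stood at 12261 to 91135 CPM in the H. leechii livers. A lower sum in UN can thus come from missing rows, and its part in the 33 genes was not tested.

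The liver makes most plasma proteins, bile acids and urea, and conjugates and stores what the gut absorbs. BAAT, which joins bile acids to amino acids, is an enzyme of that work and among the 33 genes. Others among the 33 belong to machines that most cells run, such as the spliceosome, which removes introns, the proteasome, which degrades tagged proteins, and the mitochondrion. The rest have varied roles, and they are described gene by gene, since 26 of the 33 were on none of 46 lists of pathways and cell types.

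Most of the 451 genes were alike in level. The mean UN level was within 2-fold of the H. leechii level for 358 genes (79.4%), the median log2 fold change was 0.09, and 256 values were positive and 195 negative. Log2 fold changes came from an edgeR fit and set UN against the equal-weight mean of the log2 levels of the lineages. In the 25 genes above they ran from 0.77 to 6.51 with a median of 3.15. In the 8 genes below they ran from -3.02 to -0.43 with a median of -1.90. The 25 genes together took 2.95% and 3.51% of all counts in the UN livers, against 0.123% to 0.212% in the H. leechii livers. Of the 25, 9 had their lower UN liver at least 5-fold above the highest H. leechii liver, 8 between 2-fold and 5-fold and 8 under 2-fold. Of the 8 below, 1 was separated by at least 2-fold. In bulk tissue, a lower or higher level per cell cannot be told apart from a lower or higher share of the cells that make the transcript.

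**Figure D1:**
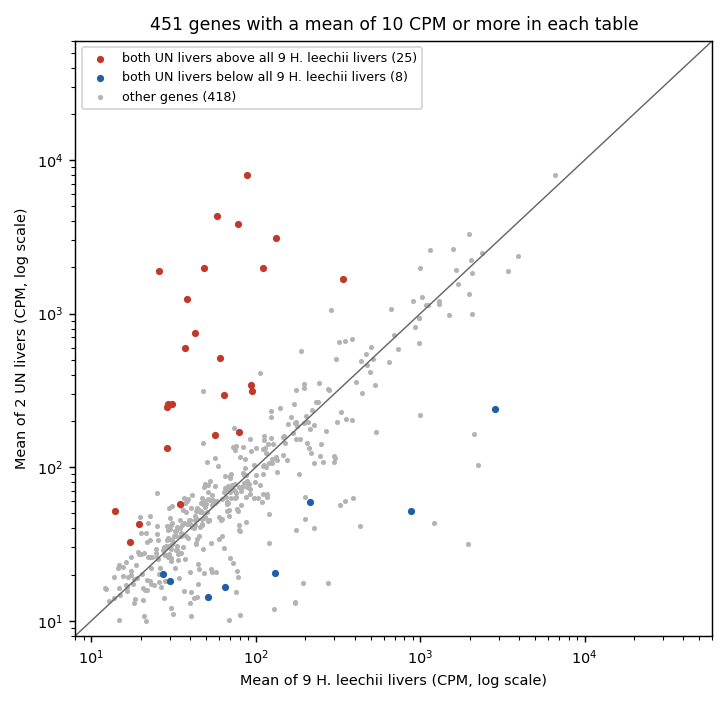
Mean level of each of 451 genes in the 2 UN livers (vertical, CPM, log scale) against the mean of the 9 H. leechii livers (horizontal, CPM, log scale), with the line of equal levels. The 25 genes above (red) leave the cloud much further than the 8 below (blue), and grey points far below the line are genes whose H. leechii livers reach down to a UN liver.

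The number of genes depends on the livers and the scaling used. With TMM scaling of the libraries 20 genes lay above and 11 below, so that 64.5% of the genes outside were above, against 75.8% with whole-table totals, and the median of all genes shifted by -0.17. Leaving out UN liver 1 gave 66 above and 23 below, and leaving out UN liver 2 gave 59 and 30. Leaving out HC3 liver 2 or HC3 liver 3 gave 17 or 14 below. Under all 3 other scalings 18 of the 25 stayed above and 5 of the 8 stayed below. The 7 that did not stay above are CARHSP1, LILRB1, GLE1, EEPD1, THG1L, MEMO1 and RNPS1, and the 3 that did not stay below are ME2, C1ORF27 and MTCH1. Compared only within a kind of liver, the UN level was 1.41 to 95.2 times the H. leechii mean in animals with more than 1 tissue and 1.87 to 118 times in animals with liver alone for the 25 genes. For 22 of them it was at least 2-fold in both kinds. The rule fixes these ratios to be above 1. For a gene whose lower UN liver was at least 2-fold above every H. leechii liver, a ratio of at least 2 in both kinds was fixed as well. The count of 22 is therefore a description.

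**Figure D2:**
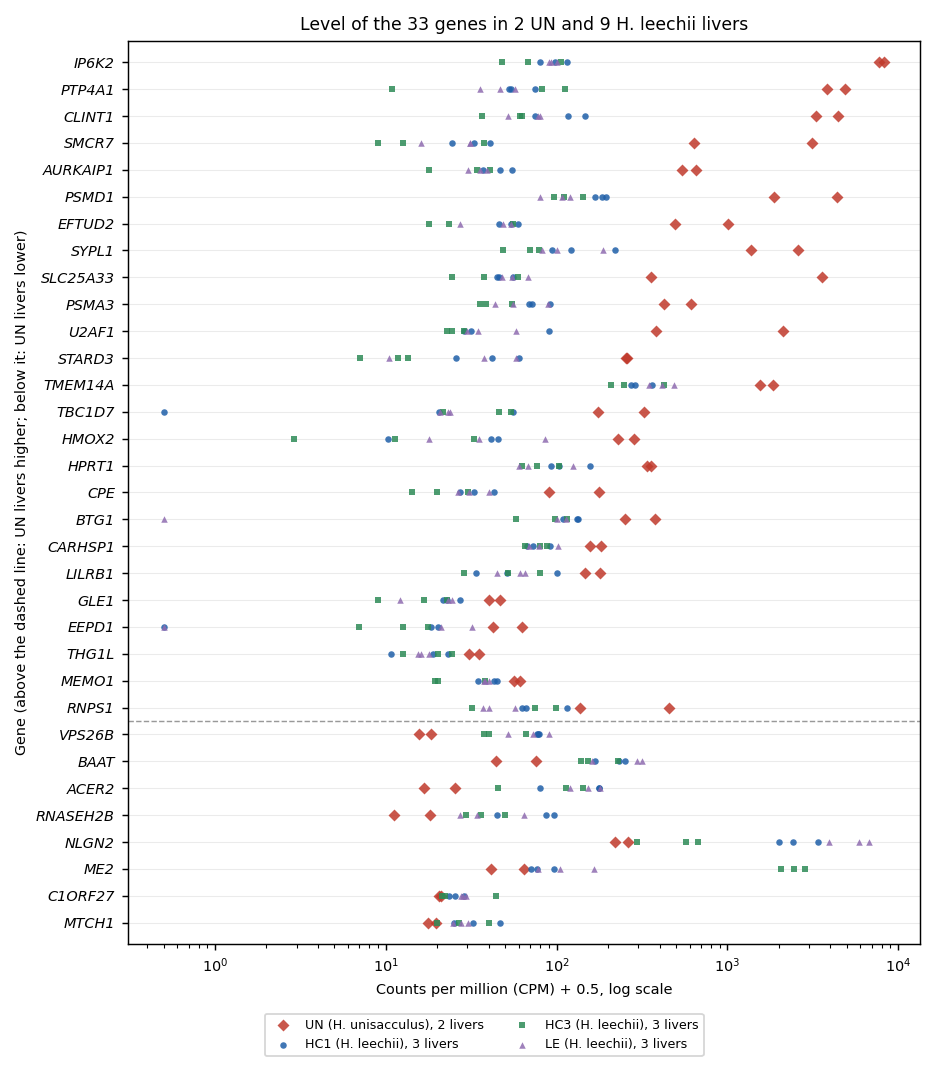
Level of the 33 genes in every liver (horizontal, CPM with 0.5 added, log scale; points at the left edge are 0), with UN livers as red diamonds and the H. leechii lineages HC1, HC3 and LE as blue, green and purple points. For IP6K2 the UN livers sit at 8286 and 7658 CPM and the H. leechii livers between 47.1 and 115 CPM, while for C1ORF27 and MTCH1 the groups nearly touch.

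Signalling genes held the widest separation. IP6K2, a kinase that adds a phosphate to inositol hexakisphosphate, had 8286 and 7658 CPM in the UN livers, against a lowest, median and highest H. leechii liver of 47.1, 91.9 and 115 CPM. The UN livers differed little from each other, and the nearer of them was 66.6-fold above the nearest H. leechii liver, with a log2 fold change of 6.51 ± 0.30 (SE). The 3 lineage means, 97.5, 73.5 and 93.7 CPM in HC1, HC3 and LE, were close together. Outside the liver the levels were much closer: the UN intestine had 55.8 CPM against 22.6 and 39.6 CPM in the HC1 and LE intestines, and the UN skin had 115 CPM, between the HC1 and HC3 skins at 86.2 and 140.2 CPM.

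PTP4A1, a phosphatase named for its appearance in regenerating rat liver, had 3815 and 4868 CPM in the UN livers, against 10.3, 53.7 and 112 CPM as the lowest, median and highest of H. leechii. Its log2 fold change was 6.25 ± 0.52 (SE). In contrast to IP6K2 it was also far higher in the other UN tissues, at 1628 CPM in the UN intestine against 51.4 and 27.4 CPM in HC1 and LE, and at 1916 CPM in the UN skin against 56.0 and 422 CPM in HC1 and HC3. PTP4A1 has close relatives in vertebrate genomes, and how reads shared by such copies were assigned is not given in the sources used here.

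Of the remaining signalling genes, TBC1D7, a subunit of the TSC complex that restrains mTORC1, had 173 and 323 CPM in the UN livers. In H. leechii it ranged from 0 CPM in HC1 liver 2 to 54.7 CPM, with a median of 22.7 CPM. The 0 allows up to 0.178 CPM at a floor of 3 counts, and the log2 fold change of 3.15 carries a wide SE of 1.12. BTG1, which slows cell division, had 377 and 250.4 CPM in the UN livers, against 0, 108 and 134 CPM in H. leechii. The 0 was LE liver 3, which allows up to 0.173 CPM, while every other H. leechii liver had at least 57.4 CPM. MEMO1, which acts in cell movement, lay close to the limit, with 55.6 and 60.4 CPM in the UN livers against 18.99, 37.7 and 44.1 CPM in H. leechii.

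Of the vesicle and membrane genes, CLINT1, SYPL1, STARD3 and CPE lay above and VPS26B below. CLINT1, an adaptor that links clathrin to vesicles of the trans-Golgi network, had 4434 and 3278 CPM in the UN livers, against 36.3, 74.6 and 146 CPM in H. leechii, a log2 fold change of 5.70 ± 0.32 (SE). It was also at 2674 CPM in the UN intestine, against 301 and 154 CPM in HC1 and LE, and at 4295 CPM in the UN skin, against 279 and 296 CPM in HC1 and HC3. All 3 UN tissues were thus high. SYPL1, a membrane protein of transport vesicles, had 2579 and 1367 CPM in the UN livers, against 48.0, 93.8 and 219 CPM in H. leechii, a log2 fold change of 4.23 ± 0.38 (SE). Unlike CLINT1, it was at 94.8 CPM in the UN intestine, between LE at 83.8 and HC1 at 142 CPM.

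STARD3, which moves cholesterol at late endosomes, had nearly equal UN livers at 255 and 258 CPM, against 6.58, 25.2 and 59.9 CPM in H. leechii. Its lineage means were uneven, 42.1 CPM in HC1, 10.3 CPM in HC3 and 34.7 CPM in LE. CPE, a carboxypeptidase that finishes peptide hormones in secretory granules, had 89.1 and 176 CPM in the UN livers, against 13.8, 29.7 and 42.4 CPM in H. leechii. CPE is made by endocrine cells, and the summed level of 16 pancreas markers in the UN table was 4652 and 35537 CPM in the same UN livers, against 55.2 to 32552 CPM over the pancreas markers of the H. leechii tables. Among the pancreas markers AMY2B, CELA2A and SST were at 0 in both UN livers, and the part of such cells in the CPE level was not tested. VPS26B, a subunit of the retromer that returns receptors from endosomes, was on the other side. It had 15.1 and 17.9 CPM in the UN livers, against 36.8, 72.4 and 90.1 CPM in H. leechii, and of the 8 genes below it alone was at least 2-fold apart, at 2.05-fold.

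Mitochondrial genes lay on both sides. SLC25A33, the carrier that takes pyrimidine nucleotides into mitochondria, had 357 and 3596 CPM in the UN livers, against 23.97, 47.5 and 67.3 CPM in H. leechii. The UN livers were 10.1-fold apart, the widest of the 33 genes, so its log2 fold change of 5.37 ± 0.53 (SE) rests on UN liver 2 and was 2.91 without it. Both UN livers were still above every H. leechii liver. SMCR7, an older symbol of MIEF2, which recruits the fission machinery to mitochondria, had 640.4 and 3139.7 CPM in the UN livers, against 8.50, 30.5 and 40.3 CPM in H. leechii. Its log2 fold change was 6.23 ± 0.54 (SE) and 4.67 without UN liver 2. In the UN intestine SMCR7 was at 35.4 CPM, just under HC1 at 46.5 and LE at 36.6 CPM, and in the UN skin at 65.9 CPM, just over HC1 at 57.5 and HC3 at 58.8 CPM.

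AURKAIP1, a protein of the small mitochondrial ribosomal subunit, had 538 and 652 CPM in the UN livers, against 17.4, 36.7 and 54.4 CPM in H. leechii, a log2 fold change of 4.03 ± 0.30 (SE). The log2 fold changes of the 6 other proteins of the mitochondrial ribosome listed by name ran from -2.42 to 0.59, with a median of 0.16. Of these, 0 of 6 lay outside, beside 7.32% of all 451, so the count is not a result about them. TMEM14A, a small membrane protein linked to mitochondria, had 1839.6 and 1551 CPM in the UN livers, against 206, 347 and 486 CPM in H. leechii. TMEM14A reached 104 CPM in the UN skin, against 46.0 and 36.8 CPM in HC1 and HC3. On the low side, the mitochondrial malic enzyme ME2 had 63.6 and 40.6 CPM in the UN livers, against 70.5, 104 and 2855 CPM in H. leechii. This range was set by lineage, with a mean of 2454 CPM in HC3 but 80.7 CPM in HC1 and 116 CPM in LE. Its log2 fold change was -2.45 ± 0.44 (SE). MTCH1, an outer membrane protein of the carrier family, had 19.2 and 17.0 CPM in the UN livers, against 19.4, 27.1 and 46.2 CPM in H. leechii. That separation is 1.01-fold.

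Of 8 proteasome and ubiquitin genes among the 451, 2 lay above and 0 below, beside 5.54% above and 1.77% below over all 451. PSMD1, the large scaffold of the proteasome's regulatory cap, had 1872 and 4369.7 CPM in the UN livers, against 79.1, 119 and 194 CPM in H. leechii, a log2 fold change of 4.60 ± 0.31 (SE) that was 3.86 without UN liver 2. PSMA3, a ring subunit of the proteasome core, had 425 and 609 CPM in the UN livers, against 34.9, 55.2 and 90.5 CPM in H. leechii, a log2 fold change of 3.14 ± 0.31 (SE). The only other proteasome subunits among the 8 genes, PSMB1 and PSMD8, stayed inside the H. leechii range, as most of the 451 genes did. PSMB1, another subunit of the core, had 153 and 239 CPM in the UN livers and 125 to 330.4 CPM in H. leechii, and PSMD8, of the cap, had a log2 fold change of -0.34 ± 0.34 (SE). The median of the 8 genes, which include the ubiquitin genes UBB, UBE2D4, UBE2E2 and UBE2V2, was 0.15, against 0.09 over all 451. The proteasome subunits also differed between tissues. PSMA3 was high in the UN intestine, at 363 CPM against 77.2 and 52.9 CPM in HC1 and LE, and in the UN skin, at 543 CPM against 79.3 and 69.7 CPM in HC1 and HC3. PSMD1 was at 200.3 CPM in the UN intestine, between LE at 164 and HC1 at 254 CPM, and at 321 CPM in the UN skin, under the HC1 and HC3 skins at 461 and 449 CPM.

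RNA processing contributed 3 splicing genes, a tRNA enzyme, an export factor and a cold-shock protein. EFTUD2, the GTPase of the U5 particle of the spliceosome, had 493 and 1008 CPM in the UN livers, against 17.4, 48.3 and 58.9 CPM in H. leechii, a log2 fold change of 4.17 ± 0.40 (SE) that was 3.57 without UN liver 2. U2AF1, which reads the 3′ end of introns, had 2123 and 383 CPM in the UN livers, against 22.2, 29.3 and 89.9 CPM in H. leechii. The UN livers differed 5.54-fold, in this case with UN liver 1 higher, and the log2 fold change of 5.09 ± 0.51 (SE) was 3.38 without it. U2AF1 was low in the UN intestine, at 16.03 CPM against 24.8 and 21.9 CPM in HC1 and LE. RNPS1, part of the complex left on spliced exons, had 137 and 455 CPM in the UN livers, against 31.4, 61.8 and 114 CPM in H. leechii, and its log2 fold change of 2.25 ± 0.44 (SE) was 1.13 without UN liver 2. On the list of RNA-binding and splicing genes, 15 were among the 451, U2AF1 alone lay outside, which is near the 7.32% of all 451, and the median was 0.04. EFTUD2 and RNPS1 are not on that list.

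GLE1, which helps mRNA leave the nucleus, had 45.9 and 39.5 CPM in the UN livers, against 8.51, 22.2 and 26.7 CPM in H. leechii. It was further apart in the other tissues, at 114 CPM in the UN intestine against 18.95 and 16.8 CPM in HC1 and LE, and at 209.5 CPM in the UN skin against 24.6 and 78.0 CPM in HC1 and HC3. THG1L, which adds a guanosine to histidine tRNA, had 30.0 and 34.7 CPM in the UN livers, against 10.1, 17.3 and 23.7 CPM in H. leechii. CARHSP1, an RNA-binding cold-shock domain protein, had 157 and 182 CPM in the UN livers, against 65.1, 78.5 and 101.04 CPM in H. leechii. These last separations, 1.27-fold and 1.55-fold, were small.

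Genes of genome upkeep were few. EEPD1, a nuclease of stalled replication forks, had 41.6 and 62.5 CPM in the UN livers, against 0, 17.0 and 31.3 CPM in H. leechii, where both HC1 liver 2 and LE liver 3 were at 0. Its log2 fold change of 1.93 ± 1.46 (SE) is therefore loosely set. RNASEH2B, a subunit of the enzyme that removes RNA from DNA, was low, with 10.7 and 17.7 CPM in the UN livers against 26.8, 44.3 and 95.6 CPM in H. leechii. It was also lowest in the UN intestine, at 8.35 CPM against 62.3 and 12.2 CPM in HC1 and LE, and in the UN skin, at 9.87 CPM against 56.0 and 42.3 CPM in HC1 and HC3.

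Purine, heme and immune genes followed. HPRT1, the purine salvage enzyme, had 356 and 336 CPM in the UN livers, against 59.5, 91.6 and 156 CPM in H. leechii, a log2 fold change of 1.91 ± 0.33 (SE). Its level also varied widely between the intestines, at 707 CPM in UN against 4131 CPM in HC1 and 120.4 CPM in LE. The heme oxygenase HMOX2, the form made at all times, had 229 and 283 CPM in the UN livers, against 2.41, 32.5 and 85.4 CPM in H. leechii, a log2 fold change of 3.19 ± 0.72 (SE). HMOX2 was also higher in the UN intestine, at 155 CPM against 76.3 and 97.6 CPM in HC1 and LE, and in the UN skin, at 209 CPM against 63.7 and 121 CPM in HC1 and HC3. The inducible form HMOX1 stayed inside the range, at 1716 and 159 CPM in the UN livers and 39.9 to 2833 CPM in H. leechii. The row labelled LILRB1, an inhibitory receptor of white blood cells, had 147 and 179 CPM in the UN livers, against 28.2, 51.2 and 99.3 CPM in H. leechii. LILRB1 belongs to a family of similar genes in mammals, so which member the row stands for is uncertain. Summed leukocyte markers were at 2099 and 2006 CPM in the UN livers and 1344 to 5050.3 CPM in H. leechii, with CD8A, CYBA, MPEG1 and RAC2 of 30 markers at 0 in both UN livers.

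The remaining low genes include the liver enzyme of the set. BAAT had 43.4 and 75.0 CPM in the UN livers, against 138, 227 and 314 CPM in H. leechii, a log2 fold change of -1.84 ± 0.45 (SE). The other bile acid genes among the 451 stayed inside: the canalicular export pump ABCB11 had 1091 and 1198 CPM in the UN livers and 703 to 1682 CPM in H. leechii, and the basolateral transporter subunit SLC51A had 594 and 592 CPM in the UN livers and 205 to 1027 CPM in H. leechii. NLGN2, an adhesion protein best known from inhibitory synapses, had 219 and 260.3 CPM in the UN livers, against 294, 2430.3 and 6699 CPM in H. leechii. The H. leechii lineages were far apart, with means of 2612 CPM in HC1, 512 CPM in HC3 and 5483 CPM in LE, and the lowest HC3 liver was 1.13-fold above the higher UN liver. ACER2, a ceramidase of the Golgi, had 16.3 and 24.9 CPM in the UN livers, against 44.6, 142 and 179 CPM in H. leechii, a log2 fold change of -2.66 ± 0.56 (SE). C1ORF27, an older symbol of ODR4, which helps receptors fold, had 20.6 and 19.9 CPM in the UN livers, against 20.9, 27.1 and 43.7 CPM in H. leechii.

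The genes nearest the limit show how thin it can be. Just inside it on the high side were RNPS1, MEMO1 and THG1L. Just outside it was CPSF3, which cuts the 3′ end of mRNA precursors, with 111 and 92.5 CPM in the UN livers against a highest H. leechii liver of 93.8 CPM. LEPRE1 followed, with a lower UN liver of 46.4 CPM against 47.8 CPM, and PPP1R3B, with 87.6 CPM against 90.6 CPM. Just inside the low side were MTCH1, C1ORF27 and ME2. Just outside it were EXOG, with a higher UN liver of 13.2 CPM against a lowest H. leechii liver of 13.02 CPM, IL31RA, with 14.9 CPM against 14.2 CPM, and ATP13A3, with 17.5 CPM against 16.5 CPM.

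The UN intestine and the UN skin were not used by the rule, but share the animal with UN liver 1 and the reference with both UN livers. With 1 UN library each they allow no test. In the intestine 5 of the 25 high genes (20%) were at least 2-fold above both H. leechii intestines, PTP4A1, CLINT1, PSMA3, GLE1 and EEPD1, against 3.77% of the 451 genes. With TMM scaling the count was 10 of 25, against 9.98% of the 451. RNPS1 was at least 2-fold below both, at 22.7 CPM in UN against 149 and 72.2 CPM in HC1 and LE. In the skin 9 of the 25 (36.0%) were at least 2-fold above both H. leechii skins, PTP4A1, CLINT1, SLC25A33, PSMA3, TMEM14A, HPRT1, LILRB1, GLE1 and THG1L, against 7.54% of the 451. For SLC25A33 this rests on few counts, 24 in the UN skin against 6 and 7 in the HC1 and HC3 skins. RNPS1 was again below, at 30.2 CPM in UN against 223 and 168 CPM in HC1 and HC3. PTP4A1, CLINT1, PSMA3 and GLE1 were high by this measure in both the UN intestine and the UN skin. In liver the lower UN value of GLE1 was only 1.48-fold above the highest H. leechii liver. At any distance, 13 of the 25 were above both H. leechii intestines, 5 below both and 7 between. In the skin 14 were above both, 6 below both and 5 between. Over all 451 genes, 81 were above and 232 below both intestines at any distance, and 107 above and 178 below both skins.

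**Figure D3:**
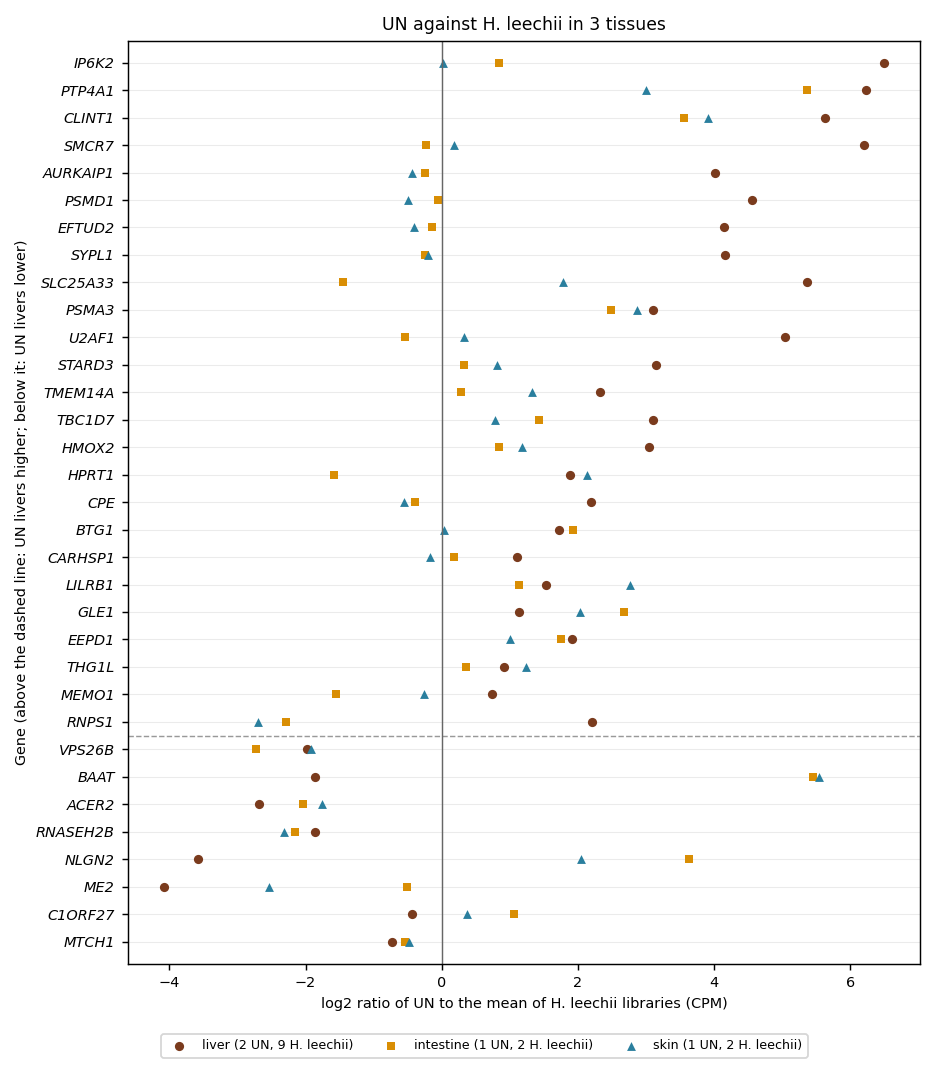
Log2 ratio of the UN level to the mean of the H. leechii libraries for the 33 genes (CPM, with a floor of 3 counts in intestine and skin) in liver (circles), intestine (squares) and skin (triangles). The liver ratios are of mean CPM, so they can differ from the edgeR log2 fold changes in the text. PTP4A1, CLINT1 and PSMA3 are far to the right in all 3 tissues, IP6K2, SMCR7, AURKAIP1, PSMD1, EFTUD2, SYPL1 and U2AF1 are far to the right in liver and within 1 of 0 in the others, and BAAT and NLGN2 are left of 0 in liver and right of it in intestine and skin.

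The low genes showed no common pattern in the other tissues. In the intestine 1 of 8 (12.5%), ACER2, was at least 2-fold below both H. leechii libraries, against 7.54% of the 451 genes (0 of 8 against 2.66% with TMM scaling), and in the skin 1 of 8 (12.5%), RNASEH2B, against 5.1% (1 of 8 against 4.66% with TMM scaling). BAAT and NLGN2 were on the opposite side in both tissues. BAAT had 369.6 CPM in the UN intestine, against 2.71 and 14.2 CPM in HC1 and LE, and 262 CPM in the UN skin, against 6.91 and 4.31 CPM in HC1 and HC3. NLGN2 had 317 CPM in the UN intestine, against 38.8 and 12.2 CPM in HC1 and LE, and 106 CPM in the UN skin, against 25.9 and 25.5 CPM in HC1 and HC3. In these same UN libraries the liver marker AMBP was near 0, as given above. The liver markers TF and TDO2 were at 38.7 and 10.3 CPM in the UN intestine and at 15.4 and 22.3 CPM in the UN skin. The part of liver cells in these levels was not tested. Whether the UN rows of BAAT and NLGN2 stand for the same genes as in H. leechii could not be checked.

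Ratios between tissues of the same animal use 1 reference on both sides. They thus remove a constant difference in the length of a row, though not the difference between the kinds of library. The livers in these ratios all came from animals with more than 1 tissue, and 43.0% to 48.1% of their low counts were odd. In the intestines and skins 11.9% to 19.4% were odd, so each ratio sets unlike kinds of library side by side. In the UN animal 11 of the 25 high genes (44.0%) were at least 10-fold higher in liver than in intestine, against 2 of 25 (8.0%) in the HC1 animal and 1 of 25 (4.0%) in the LE animal. Over all 451 genes these shares were 7.98% in UN, 6.43% in HC1 and 5.10% in LE. The median ratio of the 25 genes was 6.06 in UN, 1.04 in HC1 and 1.52 in LE. Since the UN liver was part of the choice, the UN ratios are a description. Against skin the counts were 7 of 25 (28.0%) in UN, 1 (4.0%) in HC1 and 3 (12%) in HC3, with 6.43%, 6.43% and 4.88% over all 451.

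IP6K2 had a ratio of liver to intestine of 149 in the UN animal, against 3.53 in HC1 and 2.32 in LE. U2AF1 had 132 in UN, against 3.62 and 2.63. SLC25A33 had 153 in UN, against 14.0 and 5.598, so that it was liver-rich in every animal. Its intestine counts were few, 7 in UN, 7 in HC1 and 19 in LE, so the size of these ratios is loosely set. PTP4A1 had 2.34 in UN, against 1.04 and 2.05, and PSMA3 had 1.17 in UN, against 1.17 and 1.68. For both genes the UN ratio was near those of H. leechii, and the lowest of these ratios were close to 1. BAAT, a liver enzyme in H. leechii with ratios of 93.2 in HC1 and 20.7 in LE, had 0.117 in UN. NLGN2 had 0.691 in UN, against 62.6 and 479.5.

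**Figure D4:**
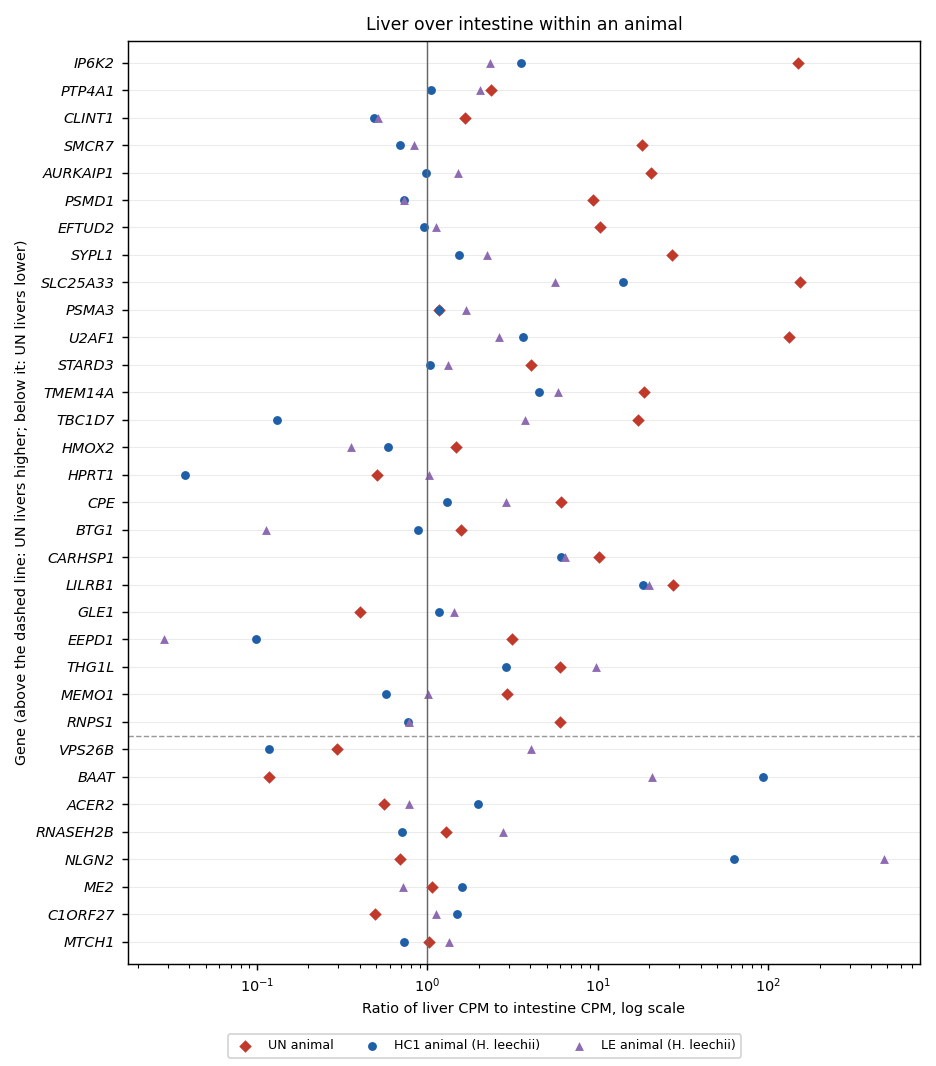
Ratio of the liver level to the intestine level of the same animal (horizontal, log scale, CPM with a floor of 3 counts) for the 33 genes in the UN animal (diamonds), the HC1 animal (circles) and the LE animal (triangles). For IP6K2, SMCR7, AURKAIP1, SYPL1 and U2AF1 the UN ratio stands far to the right of both others, and for BAAT and NLGN2 far to the left.

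The livers of the other 2 species can only be set beside these values, since a contrast of either with H. leechii shares its livers. By the same rule, 4.46% of 426 genes lay above and 10.1% below all 9 H. leechii livers in QU, and 4.68% of 449 above and 3.79% below in YA. For 22 of the 25 high genes every QU and YA liver with a row was under the lower UN liver. The choice of genes with high UN livers favours this count. No such share is given for all genes that met the minimum, so the count is a description. It also includes rows near 0, such as PSMD1 at 0.370 and 0 CPM and STARD3 at 1.66 and 0 CPM in the YA livers. IP6K2 had 72.0 and 35.0 CPM in the QU livers and 70.9 and 68.1 CPM in the YA livers. SYPL1 had 136 and 99.4 CPM in QU and 85.5 and 178 CPM in YA, and AURKAIP1 had 35.3 and 58.4 CPM in QU and 17.7 and 27.8 CPM in YA. The exceptions were HMOX2, with 345 and 195 CPM in QU, CPE, with 98.9 and 33.9 CPM in QU and 35.6 and 120.0 CPM in YA, and CARHSP1, with 286 and 62.5 CPM in YA.

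These tables too have rows near 0. Of the 33 symbols, 28 were in the QU table and 30 in the YA table, and 11 were under 10 CPM in both YA livers and 5 in both QU livers. PTP4A1 was at 0 and 0.501 CPM in QU and at 2.03 and 0 CPM in YA, and CLINT1 was at 75.0 and 70.9 CPM in QU but at 0.185 and 0 CPM in YA. Of the low genes, BAAT (297 and 269 CPM in YA, with no QU row) and RNASEH2B (19.03 and 18.96 CPM in QU, 24.96 and 18.9 CPM in YA) had every such liver above the higher UN liver. VPS26B and MTCH1 were lower there than in UN. ACER2, NLGN2, ME2 and C1ORF27 also had livers there at or under the UN level. ACER2 had 39.5 and 6.95 CPM in QU and 3.51 and 0 CPM in YA, and NLGN2, with no QU row, had 3.51 and 0 CPM in YA. ME2 had 35.0 and 31.8 CPM in QU and 67.2 and 33.4 CPM in YA. C1ORF27 had 10.7 and 16.1 CPM in QU and 44.9 and 28.6 CPM in YA.

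**Figure D5:**
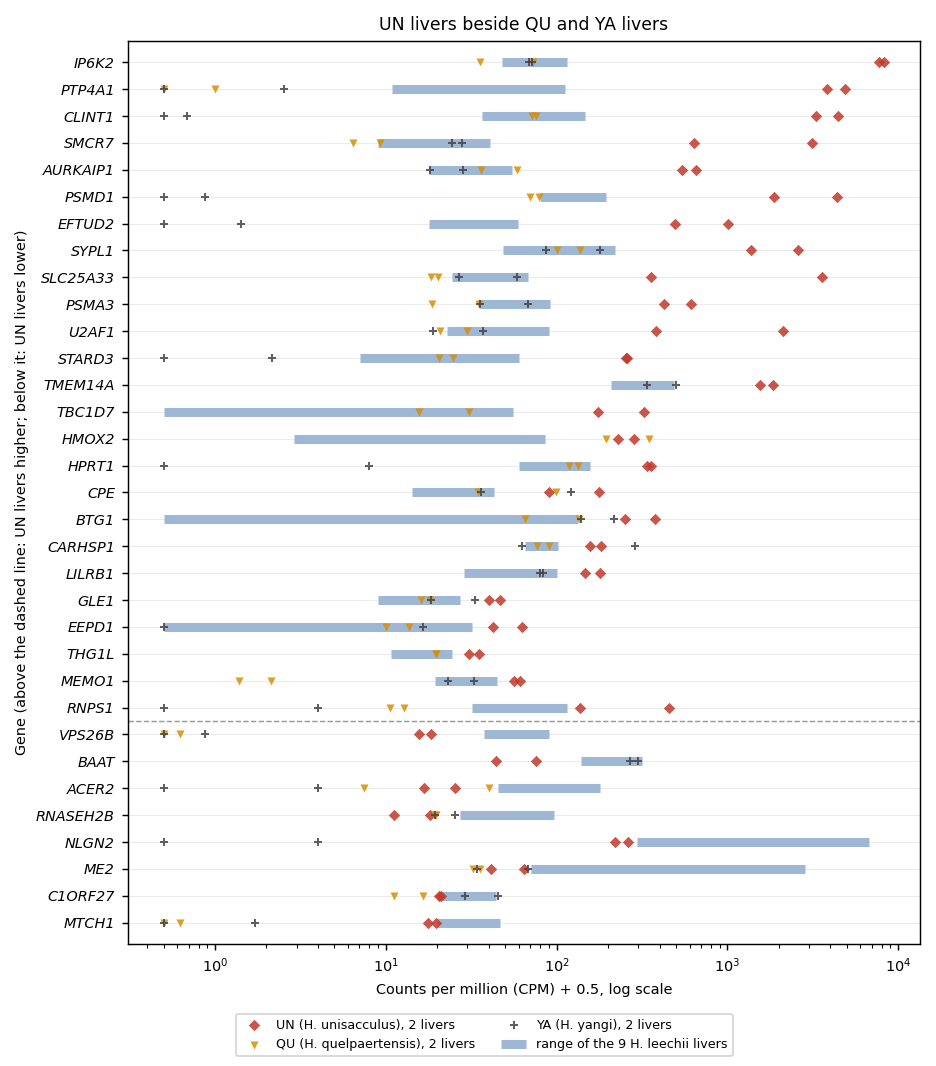
Level of the 33 genes in the UN livers (red diamonds), the QU livers (triangles) and the YA livers (crosses), with the range of the 9 H. leechii livers as bars (horizontal, CPM with 0.5 added, log scale). For the genes at the top the QU and YA livers lie in, near or under the H. leechii bars and the UN livers to their right, while HMOX2, CPE and CARHSP1 have QU or YA livers among or beyond the UN livers.

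Counts of genes outside on the other lists can be read only against the 7.32% of all 451, which comes to less than 1 gene for a list of 5 to 8. A count of 0 is therefore not a result about such a list, and the medians describe it better. Of 6 hepatocyte secreted proteins, 6 fatty acid oxidation genes and 5 genes of amino acid breakdown, 0 lay outside, with median log2 fold changes of -0.01, -0.03 and 0.26. The 8 heat shock genes, 7 respiratory chain genes, 7 cytosolic ribosomal proteins and 6 translation factors likewise had 0 outside, with medians of -0.00, -0.18, 0.16 and -0.05. The 6 iron and heme genes had a median of 0.88 and 0 outside, but HMOX2, the heme gene that lay above, is not on that list. Of the mitochondrial carriers, the adenine nucleotide exchanger SLC25A4 was inside the range despite a log2 fold change of 3.15 ± 0.59 (SE), with 563 and 737 CPM in the UN livers, against up to 1439 CPM in an H. leechii liver.

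None of the 33 genes was on a list of another cell type, but the summed levels of these lists differed between the livers. Summed markers of stellate cells and matrix were 15731 and 6747 CPM in the UN livers and 829 to 7643 CPM in H. leechii, with DCN, LAMC1 and MMP2 of 59 markers at 0 in both UN livers. Muscle markers summed to 1851 and 4196 CPM in the UN livers and 224 to 2412 CPM in H. leechii, with ACTA2, MYBPC1 and TPM2 of 27 at 0. Pigment cell markers summed to 117 and 191 CPM in the UN livers and 202 to 22528 CPM in H. leechii, with TYR of 7 at 0. Erythroid markers were at 3862 and 10802 CPM in the UN livers and 699.8 to 18385 CPM in H. leechii. Bile duct markers were at 1303 and 1854 CPM in the UN livers and 20.4 to 2123 CPM in H. leechii, and keratinocyte markers at 474 and 860.2 CPM in the UN livers and 136 to 758 CPM in H. leechii. Endothelial and enterocyte markers lay inside the H. leechii range. The number of markers differs between the tables, and the part of these cells in the 33 genes was not tested.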

How the data were processed

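Raw read counts per gene symbol were deposited by the authors in 1 table per lineage, per the file headers, after BWA and SAMtools, per the submitters' processing notes. Their versions, the references and the counting rule are not given in the sources used here. The labels speak of embryos in the extraction protocol and of adult tissue for every sample. Samples were assigned by title, which matches the column names. The description of 18 of 23 samples, UN liver 1 and the UN intestine among them, names the table of another lineage, and the column names were followed. The unnamed row of a table (up to 0.169% of a library) was dropped.

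CPM were counts divided by the whole-table total, times 1000000. Log2 fold changes and their SE came from an edgeR 4.0.16 quasi-likelihood fit (R 4.3.3) over 451 genes and 11 livers with lineage as the term, tested on simulated data. The SE does not cover the full spread between the UN livers. The value of PSMD1, 4.60 ± 0.31 (SE), became 3.86 or 5.08 when either UN liver was left out. The value of SLC25A33, 5.37 ± 0.53 (SE), became 2.91 without the higher UN liver. The livers that chose the genes also gave the SE, so it is a description. No p-values are given. In ratios, values under 3 counts were set to that floor, which allows for counting error only. Gaps use 0.5 CPM added.

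Genes and lists were chosen with earlier results of these data known. The naming rule took the 15 genes with the largest gap in each direction, up to 6 per list and direction, and the 3 nearest the limit on either side. Members outside this rule (HPRT1, CPE, CARHSP1, LILRB1, GLE1, EEPD1) were named to account for all 33, and genes inside the range after their values were seen. Alternatives were TMM, median-of-ratios and shared-gene totals, DESeq2 1.42.0, other minimum levels, symbols in all 6 tables, each liver left out, and each kind of liver alone.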

Additional observations from a re-analysis of the deposited data

Results flagged for a closer look

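In 4 of the 33 genes, a H. leechii liver stood apart from the other 8 by Dixon's criterion on the log2 scale. Chance flags about 1 in 20 groups. PTP4A1 was at 10.3 CPM in HC3 liver 2, with the next liver at 35.0 CPM. TBC1D7 was at 0 CPM in HC1 liver 2, with the next at 19.9 CPM, and BTG1 was at 0 CPM in LE liver 3, with the next at 57.4 CPM. C1ORF27 was at 43.7 CPM in HC3 liver 1, with the next at 28.9 CPM. The 3 low values are all in livers of animals with more than 1 tissue, where 29.8% to 40.8% of rows were at 0, and the high value is in a liver of an animal with liver alone. The part of the kind of library in these values was not tested.

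In 13 genes, the UN library of another tissue lay on the opposite side of both H. leechii libraries from the UN livers. Over all 451 genes, 232 lay below and 81 above both H. leechii intestines in UN, and 178 below and 107 above both skins. Lying below both is thus common in these UN libraries. These differences between tissues were not tested, since each tissue has 1 UN library. In the UN intestine, high liver genes that were low included SMCR7 at 35.4 CPM, against 36.6 to 46.5 CPM in H. leechii, SLC25A33 at 2.34 CPM, against 3.16 to 9.66 CPM, and U2AF1 at 16.03 CPM, against 21.9 to 24.8 CPM. MEMO1 was at 19.03 CPM there, against 37.6 to 74.5 CPM, and RNPS1 at 22.7 CPM, against 72.2 to 149 CPM. SLC25A33 had 7 counts in each of the UN and HC1 intestines and 19 in LE. Its place below HC1 thus rests on the library totals. In the UN skin, AURKAIP1 was at 30.2 CPM, against 39.8 to 41.9 CPM, PSMD1 at 321 CPM, against 449 to 461 CPM, and EFTUD2 at 80.4 CPM, against 96.4 to 116 CPM. SYPL1 was at 186.3 CPM in the UN skin, against 186.5 to 242 CPM, CPE at 5.51 CPM, against 6.05 to 10.2 CPM, and RNPS1 at 30.2 CPM, against 168 to 223 CPM.

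Low liver genes that were high elsewhere were BAAT, NLGN2 and C1ORF27. BAAT was at 369.6 CPM in the UN intestine, against 2.71 to 14.2 CPM, and at 262 CPM in the UN skin, against 4.31 to 6.91 CPM. NLGN2 was at 317 CPM in the UN intestine, against 12.2 to 38.8 CPM, and at 106 CPM in the UN skin, against 25.5 to 25.9 CPM. C1ORF27 was at 42.1 CPM in the UN intestine, against 15.3 to 24.9 CPM, and at 52.8 CPM in the UN skin, against 34.6 to 47.0 CPM.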

How the results depend on the processing

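Against 25 genes above and 8 below, TMM gave 20 and 11, totals over the shared symbols 27 and 11, and median-of-ratios factors 32 and 14. Without a minimum level the counts were 361 and 275 of 3733 genes, with a minimum of 50 CPM 9 and 3 of 153, and with only the 339 symbols common to the 6 tables, the counts were 19 and 6. Leaving out each liver in turn gave 25 to 66 above and 8 to 30 below, since fewer livers have to lie outside. Only animals with more than 1 tissue gave 105 and 89, and only animals with liver alone 79 and 55. Of the high genes 2-fold above in the UN intestine, 5 became 10 with TMM and 13 at any distance. The low genes 2-fold below there, 1, became 0 and 4. Over all 451 genes, 81 were above and 232 below there at any distance. In the UN skin 9 became 14 and 1 became 4 at any distance, beside 107 above and 178 below over all 451. The cause of these changes was not tested where fewer libraries, genes or a lower threshold do not set it. Log2 fold changes of all 33 genes kept their sign under TMM, median-of-ratios factors and DESeq2. These shifted the median of all genes by only -0.17, 0.01 and 0.01. The smallest value in size was -0.43, of C1ORF27, so the signs had little room to change. With a liver left out or 1 kind of liver alone, the rule that chose the genes fixes the sign in advance, so only the size can change. The values moved by more than 1 pooled SD between livers of a lineage (log2 CPM with 0.5 added) for 2 genes without UN liver 1 and 6 without UN liver 2. In animals with more than 1 tissue 10 genes moved by as much, and in animals with liver alone 4. For 1 kind of liver alone the value was the log2 ratio of mean CPM and not the edgeR fit. Part of such a move can therefore come from the change of measure, as for ME2, at -2.45 in the fit and at -3.78 and -4.45 in the 2 kinds. No paired analysis was possible because every liver came from a different animal and replicate numbers were given in accession order. Precision is limited by the 2 UN livers and the 1 UN library of each other tissue. The counts of 0 of TBC1D7, BTG1 and EEPD1 lay in HC1 liver 2 and LE liver 3. These livers had totals of 16821748 and 17372471 counts, and the cause of the counts of 0 was not tested.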
